A study of Mus musculus with 12 samples.

Results

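Kcnj2 encodes Kir2.1, an inward-rectifier potassium channel, and its transcript was followed in the mouse hippocampus across 4 groups of 3 arrays. The gene was chosen by its measured response to kainate in these same arrays, so its kainate differences are given below as a description, with no test. It is 1 of the 5928 genes to which the array (the C array of the Affymetrix murine U74 set) assigns a single symbol, and it is read by 1 probe set, 134778_at. That probe set is among the 3541 of 11868 that passed the filter on dim signal, log2 4 or more on 3 or more arrays. The array also reads 4 other inward-rectifier genes, Kcnj4, Kcnj9, Kcnj11 and Kcnj14, which serve as background.

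The study compared control mice with mutant mice that lack the transcription factors CREB and CREM. In each genotype, mice received an intraperitoneal dose of 20 mg/kg kainate, or saline, and their hippocampi were taken 1 hour later. The groups are named here control saline, control kainate, mutant saline and mutant kainate. All animals were littermates of 5 to 6 weeks and of both sexes, housed alone and handled for 5 days. RNA of 3 animals was pooled for each array, so an SD here describes the spread between pools, and no value belongs to a single animal. The sources used here do not give the alleles, any Cre driver of the mutants or the controls' genotype beyond that name, and they link pools across groups by a replicate number alone.

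Inward rectifiers pass potassium more readily into the cell than out of it, because magnesium and polyamines inside the cell plug the pore when the cell depolarizes. Kir2 channels hold the resting potential of neurons near the potassium equilibrium and need the membrane lipid PIP2 to open. In the brain Kcnj2 is known from neurons, among them dentate granule cells, and from capillary endothelium and microglia. Kainate activates ionotropic glutamate receptors and drives seizure activity, and CREB and CREM bind the cAMP response element (CRE) in the promoters of many genes that neuronal activity induces.

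The 250 bases before the Kcnj2 start are shown because the mutants lack factors that bind CRE, so a reader may ask whether the letters of that element stand there. They lie at chr11:111065914-111066163 of GRCm38.p6, plus strand, and were taken from RefSeq. Capitals mark the matches to the motifs searched, each sought on both strands.

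Kcnj2, 250 bases before the start: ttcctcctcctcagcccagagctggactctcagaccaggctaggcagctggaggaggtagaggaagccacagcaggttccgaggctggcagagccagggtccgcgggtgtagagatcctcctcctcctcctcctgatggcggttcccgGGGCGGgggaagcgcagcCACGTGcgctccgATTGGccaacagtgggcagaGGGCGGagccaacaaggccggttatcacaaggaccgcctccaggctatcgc

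The window held no full CRE (TGACGTCA) and no short CRE (TGACG) on either strand. Of the 32851 windows of this length in the table, 1.55% hold the full element and 17.8% the short one, so a window without them is the usual case. The Kcnj2 window held the E-box CACGTG once, 84 to 79 bases before the start, a motif found in 6.02% of windows. It held the GC box GGGCGG at 102 to 97 and again at 51 to 46 bases before the start (32.7% of windows). The CCAAT motif stood on the minus strand at 71 to 67 bases (33.8% of windows), and no 2 of these matches overlap. The AP-1 motif TGANTCA (6.75% of windows), the EGR motif GCGNGGGCG (4.7%) and the CArG box (1.47%) did not occur. The G and C content of the window was 65.6%, against a median of 52.4% over all windows. A match of letters is not a binding site, and elements farther from the start were not searched.

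Some arrays stand apart from their groups, and Kcnj2 values with and without them are given further on. Array medians ran from 3.26 to 3.41, and arrays correlated at 0.818 to 0.994 with each other. Mutant kainate replicate 3 had an SD over probe sets of 1.54, against 1.74 to 1.81 on the other 11, and correlated with no array above 0.899. Control kainate replicate 3 read 12.95 for the astrocyte filament gene Gfap, where its group's other arrays read 11.51 and 11.53. Mutant arrays read 12.23 to 13.03 for Gfap, except mutant kainate replicate 3 (11.55).

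The deleted genes were checked as well. Creb1, by its 1 tested probe set, ran from 4.77 to 5.00 in control saline, 4.81 to 4.90 in control kainate, 4.94 to 5.11 in mutant saline and 4.83 to 5.01 in mutant kainate. Crem, likewise by 1 probe set, ran from 4.37 to 4.51, 4.41 to 4.57, 4.63 to 4.83 and 4.51 to 4.65. Neither signal was lower on the arrays labelled mutant. Both signals lay near the dim level of 4, where a loss may not show. Whether these probes lie in the deleted parts is not known here, so the genotype rests on the labels in every comparison.

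Kcnj2 was far higher after kainate than after saline on every array of both genotypes. In whole hippocampus a change in the number of cells that carry it and a change in transcript per cell cannot be told apart. In control saline it read 5.91, 6.55 and 6.19 on the log2 scale for replicates 1, 2 and 3, a mean of 6.22 ± 0.32 (SD, n = 3 arrays, as in each group below). In control kainate it read 9.37, 9.52 and 9.60, a mean of 9.50 ± 0.12. The lowest control kainate array lay well above the highest control saline array.

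In mutant saline Kcnj2 read 6.65, 6.70 and 6.84, a mean of 6.73 ± 0.10, the narrowest of the 4 groups. In mutant kainate it read 9.09, 9.23 and 8.27, a mean of 8.86 ± 0.51, the widest. Replicate 3 stood below the other two mutant kainate arrays and still above every saline array.

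**Figure D1:**
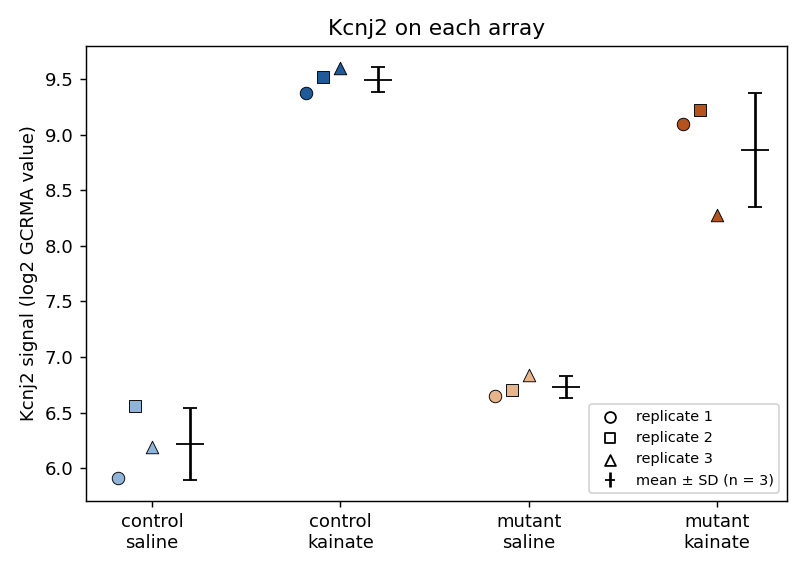
Kcnj2 signal (log2 GCRMA value, y axis) on each of the 12 arrays, by group (x axis). Points are arrays, shaped by replicate number, and the bar beside them is the group mean ± SD (n = 3). The 6 kainate arrays sit between 8.27 and 9.60, above the 6 saline arrays at 5.91 to 6.84.

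The kainate difference was 3.28 ± 0.24 in control mice (log2, SE from the limma fit, 95% interval 2.74 to 3.82), a 9.71-fold higher signal with an interval of 6.67 to 14.1. In mutant mice it was 2.14 ± 0.24 (1.59 to 2.68), which is 4.39-fold. Averaged over the genotypes it was 2.71 ± 0.17 (2.32 to 3.09), or 6.53-fold. On the linear scale the geometric mean signal went from 74.4 to 723 in control mice and from 106 to 466 in mutants.

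These kainate contrasts chose the gene, so the shares of probe sets called in them are given only for scale, and no call is read for Kcnj2. At an adjusted p under 0.05 (limma, Benjamini-Hochberg over 3541 probe sets) 0.0282% were called in control mice, 0.0282% in mutants and 0.141% over both genotypes, which is 1, 1 and 5 probe sets. With each array left out in turn the counts ran from 1 to 4, 0 to 67 and 5 to 56. The count in mutants was 0 in 8 of the 12 such fits, and 3 without mutant kainate replicate 3. The highest counts came without mutant kainate replicate 1. Without control kainate replicate 3 there were 3 calls in control mice, and without mutant kainate replicate 3 there were 3 in control mice and 11 over both genotypes. Every kainate array lay above every saline array for 6.02% of probe sets in control mice and for 1.67% in mutants. By size the Kcnj2 difference ranked 1 of 3541 in control mice and 3 of 3541 in mutants, where Gm13889 (2.38 ± 0.37) and Slc4a10 (-2.36 ± 0.72) differed more. This Gm13889 probe set passed the filter on dim signal only through kainate arrays.

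The spread of Kcnj2 within groups was moderate. Its pooled SD was 0.31, against a median of 0.21 over all tested probe sets. The 304 probe sets whose mean lay within 0.5 of that of Kcnj2 had a median of 0.48. Every kainate difference between arrays of the same replicate number was positive. They were 3.46, 2.96 and 3.41 in control mice and 2.44, 2.52 and 1.44 in mutants for replicates 1, 2 and 3.

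**Figure D2:**
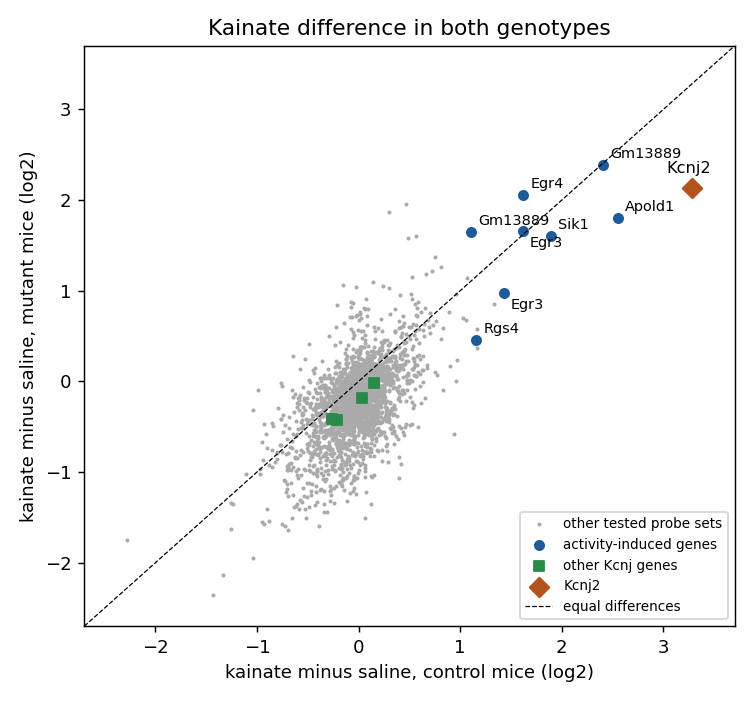
Kainate minus saline in control mice (x axis, log2) against the same in mutant mice (y axis, log2) for the 3541 tested probe sets. Kcnj2 lies farthest to the right at 3.28 and, at 2.14, below the dashed line of equal differences. The other Kcnj genes lie within the cloud around 0, and Egr3 and Gm13889 each appear as 2 points because each has 2 tested probe sets.

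The question the design puts to Kcnj2 is whether its level or its kainate response depends on CREB and CREM. The 4 comparisons of genotype are orthogonal, in this balanced design, to the averaged kainate effect, and they carry a test. Apart from the average over treatments, they are not orthogonal to the kainate difference within 1 genotype, which uses the same arrays. Kcnj2 was picked for its kainate response, so that choice bears on them, and their p-values and intervals are not free of it. Ordered by mean, the groups ran control saline, mutant saline, mutant kainate and control kainate. The step between the saline groups and the step between the kainate groups are thus the genotype comparisons.

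After saline Kcnj2 was 0.51 ± 0.24 higher in mutants (log2, 95% interval -0.031 to 1.05), and each of the 3 mutant arrays (6.65 to 6.84) lay above each control array (5.91 to 6.55). The difference did not pass (limma adjusted p = 0.435), and the exact two-sided permutation test gave p = 0.1, the smallest that 3 arrays against 3 can give. No probe set of 3541 passed by limma in this comparison (0%), with 428 at an unadjusted p under 0.05. Mutant arrays lay above control arrays for 29% of all tested probe sets, so the lack of overlap is a common pattern in this comparison and no mark of Kcnj2. Among the arrays of replicate 1 it was 0.74, and among those of replicates 2 and 3 it was 0.40.

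After kainate Kcnj2 was 0.63 ± 0.24 lower in mutants (log2 difference -0.63, 95% interval -1.18 to -0.092). The mutant arrays (8.27 to 9.23) lay below each control array (9.37 to 9.60). This difference did not pass over all probe sets either (limma adjusted p = 0.55), and the exact two-sided permutation test again gave its smallest p, 0.1. In this comparison 0% of probe sets passed by limma, 167 had an unadjusted p under 0.05, and 3.78% had all mutant arrays below all control arrays. Without mutant kainate replicate 1 there were 15 calls. Replicate 1 alone gave -0.28, and replicates 2 and 3 together gave -0.81. Without mutant kainate replicate 3 it was -0.34 ± 0.17, and normalizing all arrays again by quantiles gave -0.30 ± 0.16.

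Averaged over the treatments the opposite genotype differences nearly cancelled, at -0.061 ± 0.17 (log2, 95% interval -0.44 to 0.32). This did not pass (limma adjusted p = 0.832), and the exact permutation of genotype within each treatment gave a two-sided p of 0.83 over 400 arrangements. In this comparison 0% of probe sets passed by limma, with 677 at an unadjusted p under 0.05. There were 2 calls without control kainate replicate 3 and 1 without mutant kainate replicate 1. Its sign turned without mutant kainate replicate 3 (0.086) and without control saline replicate 2 (0.023), so it has no settled direction.

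The kainate difference of Kcnj2 was smaller in mutants than in controls by 1.14 on the log2 scale, the interaction of genotype and kainate (-1.14 ± 0.34, 95% interval -1.91 to -0.38). Expressed as folds, the mutant response was 0.452 times the control response (0.266 to 0.769). Against all 3541 probe sets this did not pass (limma adjusted p = 0.973), and 0% passed in that test, with 31 at an unadjusted p under 0.05. Over all tested probe sets the median interaction was -0.091 and 26.5% were positive, so a negative sign was common in this comparison. Kcnj2 had the rank 4 of 3541 by unadjusted p and the rank 20 by size, and the choice of the gene bears on both ranks. Over the 25 alternative settings the interaction kept its sign and ran from -1.32 to -0.80, and its adjusted p, where a fit gave one, from 0.0868 to 1.00.

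The 3 replicate numbers gave interactions of -1.02, -0.44 and -1.97 (-1.21 for replicates 2 and 3 together), so their direction was shared and their size was not. Only 4 probe sets, 0.113%, had every mutant array above every control array after saline and below after kainate. Kcnj2 had the largest differences of them, and the others were Syt6, Sfxn4 and Uri1. These 3 were looked up after the pattern was seen. Their interactions of -0.36, -0.27 and -0.16 were smaller.

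**Figure D3:**
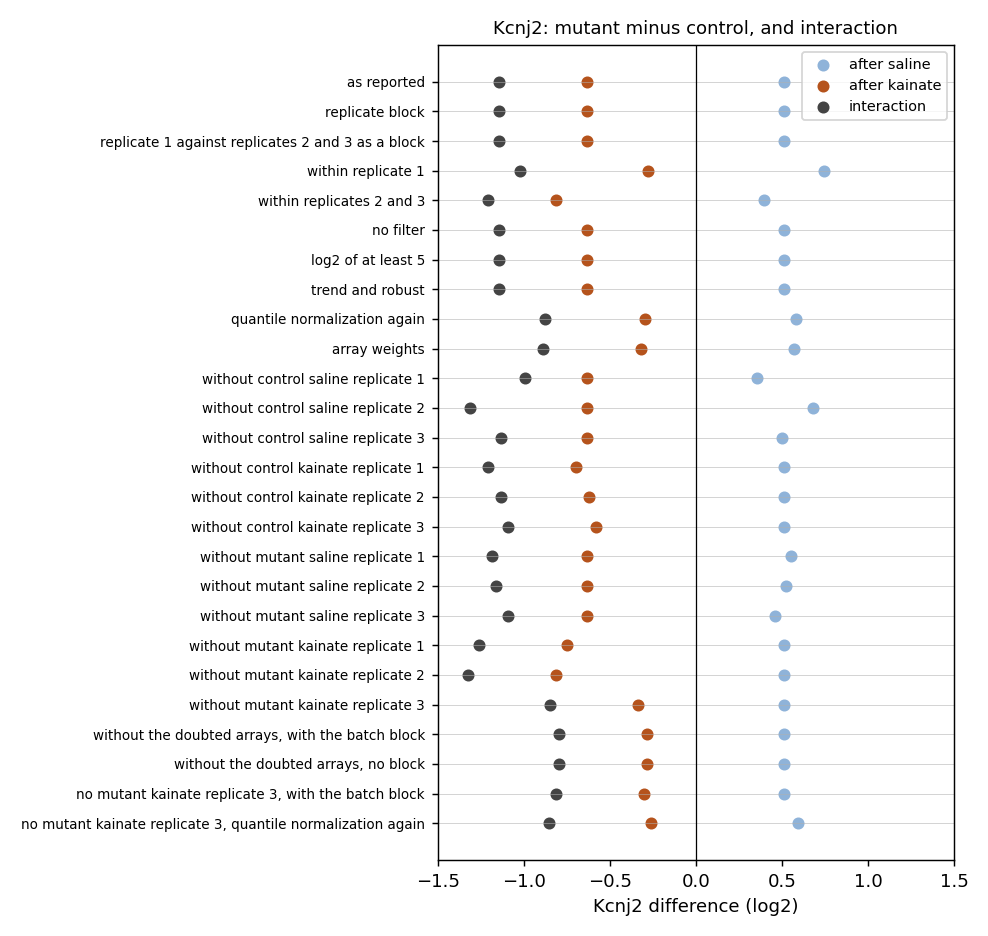
Kcnj2 differences (x axis, log2) under the reported setting and each alternative (y axis): mutant minus control after saline (light blue), after kainate (orange) and their interaction (dark grey). The saline difference stays above 0, and the other two stay below it. The kainate difference moves between -0.81 and -0.26 with the arrays and scaling used.

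On mutant kainate replicate 3 Kcnj2 stood 0.88 under the average of its group's other 2 arrays (log2 difference -0.88). The 135 probe sets within 0.5 of its level there had a median difference of -1.06, and 94.8% of them were lower. Kcnj2 was thus no lower on that array than probe sets of like level. On the 9 arrays of the other 3 groups the like median deviation ran from -0.14 to 0.092.

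Without both replicate 3 kainate arrays the Kcnj2 kainate difference was 3.23 ± 0.17 in control mice and 2.43 ± 0.17 in mutants. Mutant minus control after kainate was then -0.29 ± 0.19 and the interaction -0.80 ± 0.24 (limma adjusted p = 1.00). The saline difference does not use these arrays, and stayed at 0.51 with an SE of 0.15. The beta-actin 3' minus 5' signal, which reflects RNA integrity and labelling, ran from 1.74 to 1.92 in control saline and from 1.74 to 2.00 in mutant saline. It ran from 1.77 to 2.27 in control kainate and from 1.61 to 2.44 in mutant kainate, and its part in the Kcnj2 differences was not tested.

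The other inward rectifiers on the array did not share the kainate pattern of Kcnj2. None of the 4 passed in any of the 7 comparisons (limma, threshold as above). An unadjusted p under 0.05 was reached by Kcnj4 for genotype after saline and by Kcnj4 and Kcnj9 for genotype over both treatments, and in no other comparison. Over all tested probe sets 12.1% and 19.1% reached that level in these comparisons. Their kainate differences ran from -0.26 to 0.16 in control mice, with a median of -0.089 against 0.0058 over all tested probe sets. In mutants they ran from -0.43 to -0.019, with a median of -0.30 against -0.085.

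Kcnj4 encodes Kir2.3, of the same Kir2 subfamily as Kir2.1. It had means of 5.13 ± 0.12, 5.17 ± 0.11, 5.43 ± 0.16 and 5.25 ± 0.07 in control saline, control kainate, mutant saline and mutant kainate (log2 SD, n = 3 arrays each). Its kainate difference was 0.035 ± 0.098 in control mice (95% interval -0.19 to 0.26) and -0.18 ± 0.098 in mutants (-0.40 to 0.040). After saline it was 0.30 ± 0.098 higher in mutants, with no overlap (5.31 to 5.61 against 5.00 to 5.20), and did not pass (limma adjusted p = 0.385). The same lack of overlap was seen for 29% of all tested probe sets.

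Kcnj9 encodes Kir3.3, a subunit of channels opened by G protein beta-gamma subunits. It differed by -0.26 ± 0.24 after kainate in control mice and by -0.42 ± 0.24 in mutants. Its arrays ran from 4.55 to 5.09 in mutant kainate and from 5.11 to 5.32 in mutant saline, and the difference did not pass (limma adjusted p = 0.604). Over all tested probe sets 26.5% were positive in that comparison, and the share with such a gap was not counted. Kcnj11 encodes Kir6.2, the pore of the ATP-sensitive channel. Its SD between arrays reached 0.82 in mutant kainate, and its kainate differences of -0.21 ± 0.47 and -0.43 ± 0.47 lay within that spread.

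Kcnj14, which encodes Kir2.4 of the Kir2 subfamily, read 4.38 to 4.96 over all arrays, close to the dim level of 4. Its kainate differences were 0.16 ± 0.14 in control mice and -0.019 ± 0.14 in mutants. The highest upper bounds of the 4 genes were those of Kcnj11, 0.85 in control mice and 0.64 in mutants, below the lower bounds of 2.74 and 1.59 for Kcnj2. The Kcnj2 bounds come from the contrasts that chose it, so this gap is a description and no support. Kcnj2 and the other genes were not set against each other by a test.

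**Figure D4:**
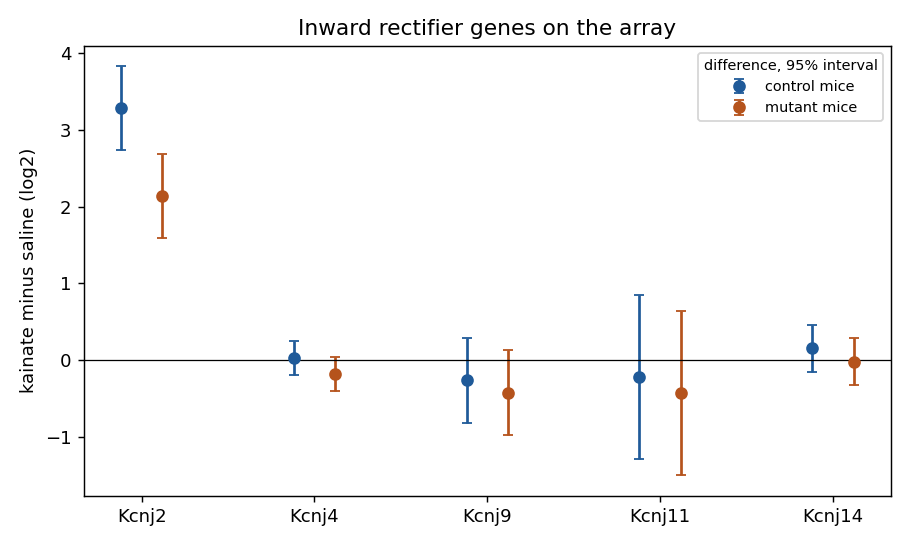
Kainate minus saline (y axis, log2) for the 5 Kcnj genes of the array (x axis), in control (blue) and mutant mice (orange), with 95% intervals from the limma fit. Kcnj2 stands at 3.28 and 2.14, and the interval of every other gene contains 0.

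Kcnj16, the inward-rectifier gene next to Kcnj2 on chromosome 11 (order from RefSeq, GRCm38.p6), has no probe set matched here, nor do Map2k6 and Gm11677. Of the 2 neighbours on each side only Sox9 has probe sets, 3 in all, and none passed the filter. The neighbours' response to kainate was therefore not measured.

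Among other potassium channel genes, channel partners and enzymes of phosphoinositide supply, 26 genes besides Kcnj2 were measured and none passed in any of the 7 comparisons. Each gene is counted by its brightest probe set. After kainate in control mice 10 of the 26 were positive and 16 negative, where 53.1% of all tested probe sets were positive. Their median was -0.057 and their range -0.70 to 0.35. At an unadjusted p under 0.05 (limma) there were 0 of 26 in that comparison and at most 4 of 26 in any, for genotype over both treatments, where 19.1% of all tested probe sets reached it. In mutants 2 were positive and 24 negative, with a median of -0.30. Over all tested probe sets 26.5% were positive in mutants, with a median of -0.085. Negative values were thus common there, and more so among these genes. For genotype after kainate 4 were positive and 22 negative (median -0.44), against 46.5% positive and -0.031 over all. The genotype average also had 4 positive and 22 negative (median -0.25), against 48.9% positive and -0.0062 over all. For genotype after saline 8 were positive and 18 negative, against 58.7% positive. These shares were not compared by a test.

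By role, 9 of 40 voltage-gated channel genes were measured, among them Kcna1, which encodes the Kv1.1 subunit of axonal channels, at -0.48 ± 0.19 for the averaged kainate difference. Kcnq5, of the M-current family, was at -0.54 ± 0.47 by its brighter probe set and 0.086 ± 0.092 by the other. Kcnq3, of the same family, was at -0.094 ± 0.16 by its brighter probe set and -0.58 ± 0.22 by the other. Kcnd3, of the A-type family, was at -0.26 ± 0.41. Of 16 auxiliary subunit genes 5 were measured, with Kcne2 the most negative at -0.82 ± 0.38. Of the scaffold genes that bind inward rectifiers 4 of 18 were measured, and Cask, which encodes a scaffold kinase of the Kir2 complex, was at -0.14 ± 0.19. Of 19 genes of phosphoinositide supply 2 were measured, Pip5k1a, an enzyme that makes PIP2, at -0.44 ± 0.26 and Plcb1, which cleaves it, at 0.25 ± 0.27. Against these, the averaged kainate difference of Kcnj2 was 2.71.

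Of the 8 genes that varied over the arrays most like Kcnj2, 5 are on the lists of genes induced by neuronal activity. These are Apold1, Egr3, Rgs4, Gm13889 and Sik1. Likeness was the Pearson correlation over the 12 arrays after the mean of each replicate number's arrays was subtracted. These correlations rest on the kainate contrast that chose Kcnj2, and the lists were made with earlier results of these data known. The overlap is thus a description and no support. The lists hold 4 and 6 measured genes, of 2387 tested genes with 1 symbol. The median correlation over all tested probe sets was -0.12. The highest were those of Apold1, an early response gene of endothelium (0.948), the zinc-finger factor Egr3 (0.936), Rgs4, which limits G protein signalling (0.920), and Mustn1 (0.913). Gm13889 (0.890), Atg101, an autophagy factor (0.876), the salt-inducible kinase gene Sik1 (0.876) and 1700086L19Rik (0.833) came next. Without the subtraction 6 of these 8 were again among the 8 highest. Gm13889 is read here by its dimmer probe set, which passed the filter only through kainate arrays.

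By list, 4 of 33 activity-induced transcription factor genes were measured, and 1, Egr3, passed for the averaged kainate difference by its brighter probe set, where 0.141% of all tested probe sets passed. Of 49 activity-induced effector genes 6 were measured besides Kcnj2. Apold1 and Sik1 passed by their brightest probe set, and Gm13889 passed by the dimmer of its 2. That Gm13889 probe set read 1.75 to 2.36 on saline arrays and passed the filter only through kainate arrays. Its call is thus not independent of the filter. The brighter Gm13889 probe set did not pass (limma adjusted p = 0.093). The list medians were 0.84 and 1.09 for that difference, against -0.042 over all tested probe sets. Both lists held rising and flat members. In the first Egr3 and Egr4 were at 1.64 and 1.84, and Jun and Crem at 0.039 and -0.063. In the second, by brightest probe set, Apold1, Sik1, Gm13889 and Rgs4 were at 2.17, 1.75, 1.38 and 0.81. Mcl1 and Spry4 were at 0.15 and -0.057. The lists were made with earlier results of these data known, so the medians are a description. No member of either list passed within 1 genotype.

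Set side by side, the kainate differences in control and in mutant mice were 3.28 and 2.14 for Kcnj2, 2.55 and 1.80 for Apold1, and 1.16 and 0.46 for Rgs4. They were 1.89 and 1.60 for Sik1, 1.62 and 2.06 for Egr4 and 1.61 and 1.66 for Egr3 by its brighter probe set. For Gm13889 they were 1.11 and 1.65 by its brighter probe set and 2.41 and 2.38 by the other. Kcnj2, Apold1 and Rgs4 thus had the smaller value in mutants (interactions -1.14 ± 0.34, -0.75 ± 0.52 and -0.70 ± 0.30), and so did Sik1 (-0.29 ± 0.38). None of these interactions passed (limma adjusted p = 0.973 for each). Over all tested probe sets 26.5% had a positive interaction, with a median of -0.091, so a smaller value in mutants was the general pattern. On mutant kainate replicate 3 Apold1 read 5.38, against 7.03 and 6.28 on its group's other arrays, and Rgs4 9.10, against 9.88 and 9.63. Egr4 had the larger value in mutants (interaction 0.44 ± 0.68), while the probe sets of Gm13889 and of Egr3 disagreed. By its brighter one Egr3 had the larger value in mutants by 0.043 ± 0.37, and by the other it had 1.43 and 0.97, with an interaction of -0.45 ± 0.88. Whether these genes differ from each other in that respect was not tested. The short CRE letters TGACG stood in the 250-base windows of Kcnj4, Apold1, Egr4 and Rgs4, and not in those of Kcnj2 and Kcnj9. Of all windows 17.8% hold these letters, and their part in the responses was not tested. The table holds no window for Kcnj11, Kcnj14, Egr3, Sik1 or Gm13889. The lowest correlations with Kcnj2 were those of B3galt5 (-0.873), Unk (-0.849), Zfp870 (-0.848) and Prickle1 (-0.845).

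**Figure D5:**
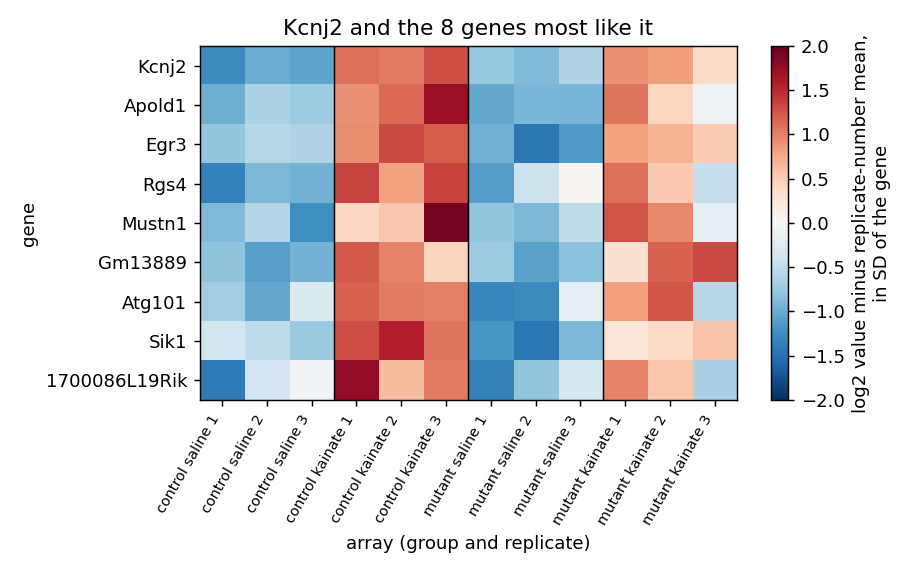
Kcnj2 and the 8 genes with the highest correlation to it (rows) on the 12 arrays (columns, grouped). Colour is the log2 value minus the mean of the arrays with the same replicate number, in SD of the gene. Kcnj2 is above that mean on all 6 kainate arrays, and Apold1, Rgs4, Mustn1, Atg101 and 1700086L19Rik fall below it on mutant kainate replicate 3.

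Of 18 general neuron genes 4 were measured (Elavl3, Elavl4, Slc17a7 and Syn1), and of 15 dentate granule cell genes 4, while none of the 9 CA1 genes is matched on this array. The summed neuron signal ran from 9.02 to 9.11 in control saline, 9.21 to 9.38 in control kainate and 8.56 to 9.46 in mutant kainate (log2 of the sum). In mutant saline it had a median of 9.01 and a highest value of 9.27. The dentate sum ran from 8.82 to 9.18 in control saline, 8.69 to 9.33 in control kainate, 8.74 to 9.36 in mutant saline and 8.37 to 9.01 in mutant kainate. The 2 of 14 interneuron genes measured summed to 8.06 to 8.29 in control saline, 8.52 to 8.74 in control kainate, 8.02 to 8.28 in mutant saline and 6.61 to 8.80 in mutant kainate. In control mice the neuron and interneuron sums after kainate lay above those after saline with no overlap, a pattern that 6.02% of all tested probe sets show. The part of these cells in the Kcnj2 differences was not tested.

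None of the measured glial and endothelial markers passed for genotype after saline. The 3 of 18 microglial genes measured (Cx3cr1, Laptm5 and P2ry12) summed to 9.56 to 9.76 in control saline and 10.12 to 10.38 in mutant saline, with no overlap, the pattern that 29% of all tested probe sets show. The 5 of 20 astrocyte genes measured summed to 10.90 to 11.64 and 12.28 to 13.02, which follows Gfap (1.41 ± 0.49 higher in mutants after saline). The other 4, Apoe, Mlc1, Pla2g7 and Slc1a2, differed by -0.093 to 0.029. Flt1, the 1 of 19 endothelial genes measured, ran from 6.49 to 6.95 in control saline and 6.44 to 6.62 in mutant saline. The part of these cells in the higher Kcnj2 of mutant saline was not tested. After kainate the microglial sum ran from 9.82 to 10.66 in control and 9.10 to 10.56 in mutant mice, and Flt1 from 6.70 to 7.38 and 5.70 to 7.49.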

How the data were processed

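The authors deposited log2 values made with GCRMA in R 2.4.1, per the submitters' processing notes; the GCRMA version is not given in the sources used here. No raw intensities were used. The 66 control probe sets were left out, and 8327 others stayed below the filter. Gene names came from the platform annotation, updated by gene ID (7677 of the 7717 probe sets with 1 symbol were found). The fit was limma 3.58.1 in R 4.3.3 on 3541 probe sets: a mean per group, 12 arrays, 8 residual degrees of freedom, Benjamini-Hochberg adjustment over all of them, 7 comparisons, checked on simulated data. Kcnj2, the gene lists and the tests were chosen with earlier results of these data known. The naming rule took every Kcnj gene, up to 4 genes of each list and the 8 most and 4 least correlated genes.

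Arrays of the same replicate number deviated together in 3 of the 4 comparisons of 3 arrays against 3 (correlations 0.190 to 0.855). In kainate against saline in mutants they did not (-0.0779 to 0.479). The labels call the arrays biological replicates. Alternatives were blocks, filters, scaling, weights, and arrays left out. The number of arrays limits precision.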

Additional observations from a re-analysis of the deposited data

Results flagged for a closer look

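Kcnj2 differed between genotypes in opposite directions under the 2 treatments, with no overlap of arrays: mutants read 0.51 higher than controls after saline and lower after kainate, at -0.63. The test of that difference, the interaction, did not pass over all probe sets (limma adjusted p = 0.973). Mutant kainate replicate 3 moves the second value to -0.34 when left out. The lack of overlap was itself the rule for this flag. Of all tested probe sets 29% had mutant arrays above control arrays after saline, 3.78% below after kainate, and 0.113% both.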

How the results depend on the processing

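The Kcnj2 kainate difference in control mice and its average over genotypes moved by less than the pooled SD under every alternative run, over 3.13 to 3.46 and 2.58 to 2.95. In mutants it moved to 2.47 without the 2 doubted arrays (replicate 3 of both kainate groups) and with replicate 1 against the rest as a block, and to 2.47 without mutant kainate replicate 3 alone and with that block. Leaving out each array in turn gave 1.96 to 2.43. The genotype differences after saline (0.36 to 0.74) and after kainate (-0.81 to -0.26) and the interaction kept their sign and did not pass under any alternative. With the replicate block their values were the same and their adjusted p-values were 0.549, 0.542 and 0.931. The kainate counts over all probe sets with this paired fit were 3 in control mice, 2 in mutants and 5 for the average.

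The averaged genotype difference reversed to 0.23 within replicate 1, 0.14 after quantile normalization again and 0.12 with array weights. Without the doubted arrays it was 0.11 with the block and 0.11 with no block. Without mutant kainate replicate 3 it was 0.11 with the block and 0.16 after quantile normalization again, both settings added after the data were seen. Leaving out each array in turn gave -0.15 to 0.086.

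Array weights gave 4 calls of other inward rectifiers and 31 of the potassium channel and partner genes over the 7 comparisons, where the unweighted fit gave 0. The weights did not converge. The partner lists gave 1 call without the doubted arrays and with the block, and 0 to 1 without each array in turn. Calls over all probe sets rose with array weights to 113 for kainate in control mice, 1007 in mutants, 1018 for their average, 477 for genotype after kainate and 938 for the genotype average. Within replicates 2 and 3 the kainate calls were 14, 70 and 205. The cause was not tested. Against 0 in the reported fit, genotype after saline, after kainate and averaged had 6, 4 and 29 calls without the doubted arrays and with the block, and 1, 0 and 5 with no block. Genotype after kainate had 5 within replicates 2 and 3. Genotype after saline and the interaction had 2 calls each with array weights. Without mutant kainate replicate 1 there were 15 calls for genotype after kainate and 1 for the average, and without control kainate replicate 3 there were 2 for the average. The kainate calls in mutants were 0 with no filter and 0 with only the arrays compared.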
